A study of Mus musculus with 6 samples.

Results

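miR-21a is a mouse microRNA (miRNA) whose hairpin precursor gives 2 mature arms, mmu-miR-21a-5p and mmu-miR-21a-3p, and both were followed across 6 small RNA libraries of embryonic stem cells. They are 2 of 1899 mature miRNA entries counted, and both are among the 351 entries with a mean of at least 50 reads over the 6 libraries. The arms were chosen by their measured response to retinoic acid (RA), which went in opposite directions in the 2 genotypes, so the RA ratios below describe the choice and support nothing further. All cells were 129/Ola embryonic stem cells kept on gelatin in medium that held serum and leukemia inhibitory factor (LIF), with no feeder layer named. The groups were Wt1 knockout (Wt1 KO) cells with RA, wild-type (WT) cells with RA, untreated Wt1 KO cells, Wt1 KO cells induced with doxycycline (dox) for 12 h or 24 h, and untreated WT cells, with 1 library each. RA, a vitamin A derivative under which stem cells differentiate, was used at 1 µM as read from the labels, for a time that the sources used here do not give. Dox, at 1 µg/ml, switched on an inducible Wt1, the zinc finger transcription factor that the KO cells lack. The labels do not say whether the untreated Wt1 KO library and the dox libraries come from the same clone.

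miRNAs are short RNAs cut from a hairpin as a duplex, of which 1 strand is usually kept in the silencing complex as the guide and the other is mostly lost. A guide binds messenger RNAs chiefly through its seed, bases 2 to 8 from the 5′ end, and lowers their translation and stability. miR-21-5p is the usual guide of its hairpin, is abundant in fibroblasts and many other differentiated cells, is induced by AP-1 and STAT3 signalling, and is known for repressing Pdcd4 and Spry1, which restrain growth signalling and translation.

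The mature sequences are shown because the arms carry unrelated seeds and because 2 paralogs resemble the 5p arm. They are given 5′ to 3′ in the DNA letters of the deposited files, with the seed in capitals.
mmu-miR-21a-5p: tAGCTTATcagactgatgttga
mmu-miR-21a-3p: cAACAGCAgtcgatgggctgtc
mmu-miR-21c: tAGCTTATcagactggtacaa
mmu-miR-21b: tAGTTTATcagactgatatttcc

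All 4 sequences matched the RefSeq entries of the same name on GRCm38.p6. miR-21c shares its seed and its first 15 bases with miR-21a-5p, while miR-21b differs in the seed and at 4 positions in all when aligned from the 5′ end. miR-21c had 1 read, in WT cells with RA, and miR-21b had 0 reads in the 6 libraries. Neither arm of miR-21a had a multi-match read, that is, a read assigned to several entries, in any library. miR-590-5p was the only other entry with the seed of miR-21a-5p and had 0 reads, and no other entry carried the seed of miR-21a-3p. Reads of this seed family were therefore counted almost wholly under miR-21a-5p.

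In RefSeq the Mir21a hairpin of 92 bases lies on the minus strand at chr11:86584067-86584158 (GRCm38.p6). The 5p arm takes chr11:86584120-86584141 and the 3p arm chr11:86584082-86584103. In the GENCODE M21 annotation of the same genome, the hairpin lies inside exon 12 of the main Vmp1 transcript, past its stop codon and so in the annotated 3′ untranslated region. Vmp1 encodes a membrane protein of autophagy and is read from the same strand. No other annotated hairpin lies within 100 kb, so miR-21a has no clustered neighbour with which it would share a short precursor.

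Uniquely matched reads totalled 83626 in Wt1 KO with RA, the shallowest library, and between 1063945 and 6106104 in the other 5. Levels are given in normalised CPM, that is, reads scaled by the library total and a composition factor (TMM). Each group holds 1 library, so no difference has a replicate check, no test between groups was possible, and every ratio compares libraries. The 95% intervals cover counting error only, since 1 library per group shows no other spread. They take each read as an independent molecule, which PCR copies without molecular identifiers are not, so they may be too narrow even for that error. Calls follow a size rule: an entry is higher from a log2 ratio of 1 upward and lower from -1 downward, provided that the interval leaves out 0. The miR-290 cluster, whose miRNAs mark undifferentiated embryonic stem cells of the mouse, summed to 72704 normalised CPM in Wt1 KO with RA, 6848 in WT with RA and 156569 to 254123 in the other 4 libraries. In bulk RNA, a level change per cell and a change in the share of cells of some type cannot be told apart.

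miR-21a-5p was most abundant in untreated WT cells and least abundant in untreated Wt1 KO cells. It had 115 reads in Wt1 KO with RA, 6168 in WT with RA, 430 in untreated Wt1 KO, 452 at 12 h and 1650 at 24 h of dox, and 2621 in untreated WT. Scaled, these were 1064, 921, 305, 399, 485 and 2406 normalised CPM in the same order. The untreated WT level stood apart at the top, the 2 RA libraries lay next, and the 3 Wt1 KO libraries without RA lay at the bottom. The 2 RA libraries, at 879 to 1278 in Wt1 KO and 898 to 945 in WT, had overlapping intervals. The intervals of the other neighbours in the order did not overlap, with 462 to 509 after 24 h of dox, 363 to 438 after 12 h and 277 to 335 in untreated Wt1 KO. Among all entries it ranked 62nd in Wt1 KO with RA, 66th in WT with RA, 122nd in untreated Wt1 KO and 38th in untreated WT.

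miR-21a-3p, the passenger arm, followed the same outline at a lower level. It had 14 reads in Wt1 KO with RA, 680 in WT with RA, 43 in untreated Wt1 KO, 91 at 12 h and 137 at 24 h of dox, and 608 in untreated WT. Scaled, these were 130, 102, 30.5, 80.4, 40.3 and 558 normalised CPM in the same order. Untreated WT was again highest and untreated Wt1 KO lowest, but here dox for 12 h lay above dox for 24 h. The interval of Wt1 KO with RA, 70.8 to 217, rests on 14 reads and overlapped those of WT with RA (94.1 to 110) and dox 12 h (64.7 to 98.7). The intervals of dox 24 h (33.8 to 47.6) and untreated Wt1 KO (22.1 to 41.0) overlapped as well. Both arms are 22 bases long, but adapters ligate to different sequences with different efficiency, so the gap between arms within a library is not a molar ratio.

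**Figure D1:**
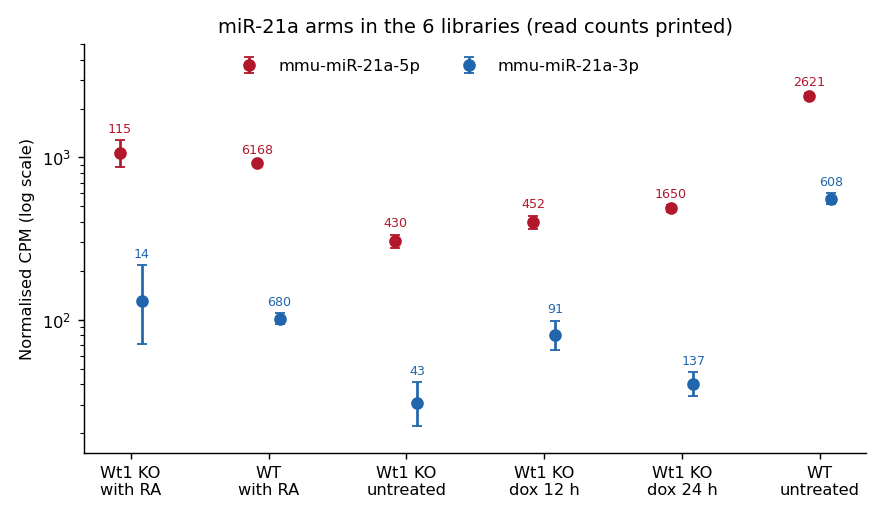
Normalised CPM (log scale) of miR-21a-5p (red) and miR-21a-3p (blue) in each of the 6 libraries, with exact Poisson 95% intervals and the read count printed above each point. Untreated WT is highest for both arms, at 2406 and 558 normalised CPM, and the interval of the 3p arm in Wt1 KO with RA, from 14 reads, is the widest.

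Without treatment, both arms were called lower in Wt1 KO than in WT cells, in the comparison that addresses the effect of losing Wt1. miR-21a-5p stood at 12.7% of its WT level in untreated Wt1 KO, a log2 ratio of -2.98 (-3.13 to -2.83). miR-21a-3p stood at 5.46% of its WT level, a log2 ratio of -4.19 (-4.68 to -3.75). Of the 351 entries 15.4% were called lower here, and the 3p and 5p arms had the third and eleventh lowest ratios. The 2 libraries of this contrast are also the baselines of the RA ratios that chose the arms, so its direction is tied to that choice. The calls over all entries were 43 higher and 54 lower, but 25 and 77 as CPM of the total and 26 and 76 with the miR-290 and miR-302 families left out of it.

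With RA in both genotypes, neither arm was called. miR-21a-5p was at 1064 normalised CPM in Wt1 KO and 921 in WT, a log2 ratio of 0.21 (-0.07 to 0.47). miR-21a-3p was at 130 normalised CPM in Wt1 KO and 102 in WT, a log2 ratio of 0.35 (-0.53 to 1.11). The interval of the 5p arm leaves room for a difference of up to 0.47 on the log2 scale, and that of the 3p arm for 1.11, so equal levels are not shown. In this contrast 37.3% of the entries were called in either direction, 63 higher and 68 lower. The split was 81 and 42 as CPM of the total, 92 and 38 with the miR-290 and miR-302 families left out, and 78 and 51 by the median of ratios. Of the 54 entries called lower in untreated Wt1 KO, 23 were also called lower with RA, 1 was called higher and 30, both miR-21a arms among them, were not called with RA. The median analysed entry had 16 reads in Wt1 KO with RA, against 188 in untreated Wt1 KO. Intervals with RA are therefore wider, and an entry can lose its call through depth alone. The 5p interval with RA left out 0 under 3 other scalings, still short of the size rule. The log2 ratio was then 0.44 (0.17 to 0.71) as CPM of the total, 0.41 (0.13 to 0.67) by the median of ratios and 0.58 (0.30 to 0.84) with the miR-290 and miR-302 families left out. The sign of both ratios with RA turned negative when every entry with a read was used to scale the libraries, at -0.21 for the 5p arm and -0.07 for the 3p arm, still uncalled.

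The RA responses of the genotypes had opposite signs for both arms. In Wt1 KO, miR-21a-5p was 1064 normalised CPM with RA and 305 without, a log2 ratio of 1.80 (1.49 to 2.10). In WT, it was 921 normalised CPM with RA and 2406 without, a log2 ratio of -1.38 (-1.45 to -1.32). miR-21a-3p had log2 ratios of 2.08 (1.10 to 2.99) in Wt1 KO and -2.46 (-2.62 to -2.30) in WT. The level with RA was 44.2% of the untreated WT level in Wt1 KO and 38.3% in WT for the 5p arm, against 23.2% and 18.2% for the 3p arm. The response in Wt1 KO exceeded that in WT by 3.19 on the log2 scale (2.88 to 3.49) for the 5p arm and by 4.54 (3.65 to 5.42) for the 3p arm. Of the 351 entries 23.4% were called higher with RA in Wt1 KO and 24.2% lower with RA in WT. By the same size rule, 21.7% had a response called higher in Wt1 KO than in WT. The calls with RA in Wt1 KO were 82 higher and 82 lower, but 124 and 34 as CPM of the total and 113 and 42 with the miR-290 and miR-302 families left out. The difference of responses had 76 entries higher and 53 lower in Wt1 KO, but 124 and 20, and 131 and 15, under the same 2 scalings.

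**Figure D2:**
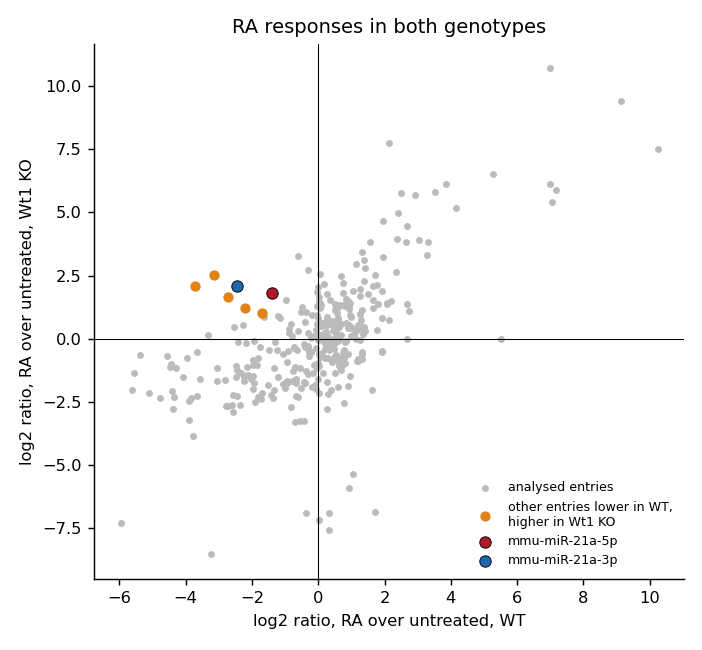
Log2 ratio of RA over untreated in Wt1 KO (vertical) against that in WT (horizontal) for the 351 analysed entries, with the miR-21a arms in red and blue and the 5 other entries called lower in WT and higher in Wt1 KO in orange. The miR-21a arms lie at -1.38 and -2.46 in WT and at 1.80 and 2.08 in Wt1 KO.

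Opposite RA calls were rare under the reported scaling. They were not counted under the other scalings, so which entries show the pattern, and how many, may differ there. As CPM of the total, for example, 124 entries were called higher with RA in Wt1 KO, against 82 as reported. Calls in that genotype also rest on the shallowest library. Lower with RA in WT and higher with RA in Wt1 KO were 7 entries, 1.99% of the 351, and 0 entries had the reverse pattern. Beside the miR-21a arms these were miR-465c-5p, the joint entry of the miR-465a, b and c 3p arms, miR-470-5p and miR-871-3p, all from an X chromosome cluster described in testis, and miR-467a-5p of a cluster in an intron of Sfmbt2. The 5 others had log2 ratios with RA of 1.02 to 2.52 in Wt1 KO and of -3.72 to -1.69 in WT. They reached the pattern from other starting levels than miR-21a. In untreated cells their ratios of Wt1 KO to WT ran from -0.35 to 1.93, while the miR-21a arms stood at -2.98 and -4.19. With RA their ratios ran from 2.36 to 7.24, while the miR-21a arms stood at 0.21 and 0.35. The largest, of miR-465c-5p (6.27 to 8.85), rests on 23 reads in Wt1 KO with RA and 8 in WT with RA. The smallest, of miR-467a-5p (1.97 to 2.73), rests on 64 and 773 reads. Neither arm of miR-21a was thus called between the genotypes with RA, while the gap of the other 5 was wide there. Just short of the pattern lay miR-28a-5p, with log2 ratios of 1.54 (1.01 to 2.05) with RA in Wt1 KO and -0.98 (-1.10 to -0.86) in WT.

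Induction of Wt1 by dox was set against untreated Wt1 KO cells to ask which miRNAs respond when the factor is supplied. Both arms had positive ratios at both times, and 1 of the 4 ratios was called. miR-21a-5p had a log2 ratio of 0.39 (0.20 to 0.58) after 12 h and of 0.67 (0.52 to 0.83) after 24 h, neither of them past the size rule. miR-21a-3p was called higher after 12 h, at 1.39 (0.86 to 1.96), and stood at 0.40 (-0.10 to 0.93) after 24 h. Called higher at 12 h were 4.27% of the entries, and 9.4% were called in either direction at 24 h. The 12 h split was 15 higher and 31 lower, but 35 and 13 as CPM of the total, 44 and 9 with the miR-290 and miR-302 families left out, and 22 and 24 by the median of ratios. The 24 h split was 20 higher and 13 lower, but 31 and 10 as CPM of the total and 37 and 6 with those families left out. The 2 times share the untreated Wt1 KO library, in which miR-21a-3p had 43 reads.

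Between the dox times, which use no library of the RA contrasts, the arms moved apart. miR-21a-5p was 485 normalised CPM at 24 h and 399 at 12 h, a log2 ratio of 0.28 (0.13 to 0.43). miR-21a-3p was 40.3 normalised CPM at 24 h and 80.4 at 12 h, a log2 ratio of -0.99 (-1.39 to -0.60), just short of the size rule and the fifth lowest of the 351 entries. In this contrast 5.13% of the entries were called in either direction. The 3p arm was called lower under 2 alternatives, with the miR-290 and miR-302 families left out (-1.01) and with a prior count not scaled to the library. Of the 351 entries 5 and 4 were called lower under these, against 3 as reported.

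Dox did not bring either arm to its level in untreated WT cells within 24 h. miR-21a-5p reached 16.6% of the untreated WT level at 12 h and 20.2% at 24 h, with log2 ratios to untreated WT of -2.59 (-2.74 to -2.45) and -2.31 (-2.40 to -2.22). miR-21a-3p was at 14.4% of it at 12 h and 7.22% at 24 h, with log2 ratios of -2.79 (-3.13 to -2.48) and -3.79 (-4.07 to -3.52). Both arms were called lower than in untreated WT at both times, as were 17.7% of the entries at 12 h and 14.5% at 24 h. The 12 h split against untreated WT was 43 higher and 62 lower, but 32 and 72 as CPM of the total.

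**Figure D3:**
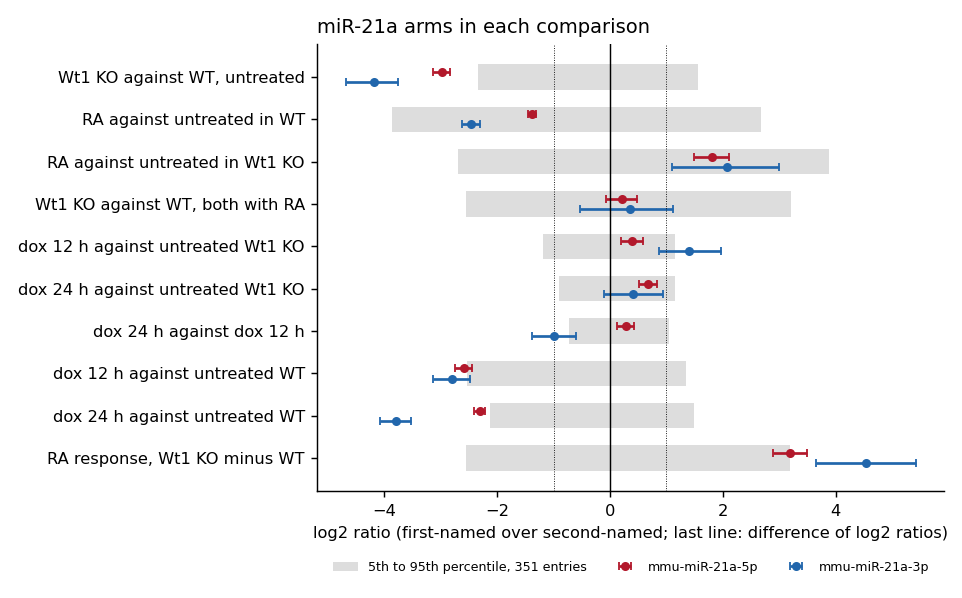
Log2 ratios of miR-21a-5p (red) and miR-21a-3p (blue) with 95% counting intervals in the 9 comparisons, and the difference of the RA responses in the lowest line. Grey bars span the 5th to the 95th percentile of the 351 entries and dotted lines mark the size rule of 1 and -1. Both arms lie left of the grey bar for untreated Wt1 KO against WT, and at 24 h against 12 h of dox only the 3p arm does.

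The balance of the arms does not depend on scaling. It was not itself used to choose miR-21a, although it comes from the same reads. Its changes with RA follow from the RA ratios of both arms, which made the choice. The untreated genotype contrast uses the baselines of those ratios, so neither is independent of the choice. Reads of miR-21a-5p per read of miR-21a-3p were 8.21 (4.70 to 15.5) in Wt1 KO with RA, 9.07 (8.38 to 9.83) in WT with RA and 10.0 (7.30 to 14.0) in untreated Wt1 KO. They were 4.97 (3.96 to 6.29) after 12 h of dox, 12.0 (10.1 to 14.4) after 24 h of dox and 4.31 (3.95 to 4.72) in untreated WT. The passenger arm thus made up 16.8% of the hairpin's mature reads after 12 h of dox and 7.67% to 10.9% in the RA, untreated Wt1 KO and dox 24 h libraries, against 18.8% in untreated WT. The interval of Wt1 KO with RA overlapped those of dox 12 h and untreated WT, while the intervals of WT with RA, untreated Wt1 KO and dox 24 h did not.

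The log2 ratio of 5p to 3p was 1.20 higher in untreated Wt1 KO than in untreated WT (0.73 to 1.67), and 1.07 higher in WT with RA than in untreated WT (0.90 to 1.24). After 12 h of dox it was lower by 1.00 than in untreated Wt1 KO (interval -1.56 to -0.45), and after 24 h it was 1.28 higher than after 12 h (0.87 to 1.69). For scale, 76 hairpins had both arms among the 351 entries. The median hairpin also shifted toward its minor arm at 12 h of dox, by -0.22, and 10 of the other 75 shifted further than miR-21a. In Wt1 KO with RA against untreated Wt1 KO the ratio of the miR-21a arms differed by -0.31 (-1.22 to 0.59). The shift toward the major arm in untreated Wt1 KO against WT was larger in 3 of the other 75 hairpins, and that at 24 h against 12 h of dox in 2 of them, while the median shift over all 76 was 0.03 and 0.10. That in WT with RA against untreated WT was larger in 6 of the other 75, with a median shift of -0.19 over all 76. The log2 arm ratio of miR-21a spanned 1.48 over all 6 libraries, against a median span of 1.49, and 40 hairpins spanned more. Over the 5 deeper libraries it spanned 1.48 as well, against a median span of 1.16, and 21 hairpins spanned more. The 3 measured entries that overlap ribosomal RNA, among them miR-6240, can mark RNA quality and summed to 787 normalised CPM after 12 h of dox, against 359 after 24 h, 314 in untreated Wt1 KO and 462 in untreated WT. Their part in the arm balance was not tested.

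**Figure D4:**
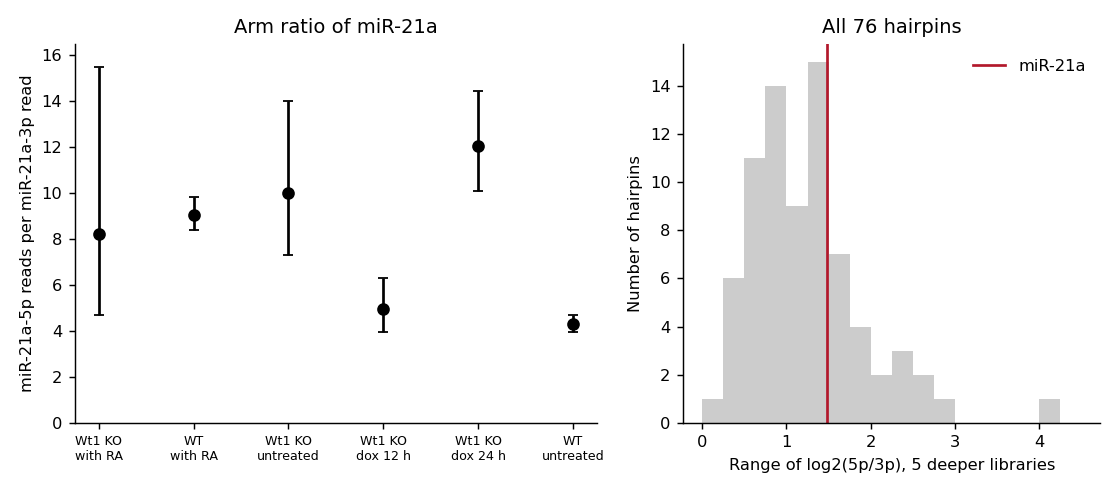
Left, reads of miR-21a-5p per read of miR-21a-3p in each library with 95% Clopper-Pearson intervals: 8.21 to 12.0 with RA, in untreated Wt1 KO and after 24 h of dox, against 4.97 after 12 h of dox and 4.31 in untreated WT. Right, the span of log2(5p/3p) over the 5 libraries other than Wt1 KO with RA for 76 hairpins, with miR-21a at 1.48 (red line).

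The entry most like miR-21a-5p over the 6 libraries was miR-28a-5p, whose centred log2 profile lay 0.20 away (root mean square) where the median entry lay 1.25 away. miR-28a-5p had 40 reads in Wt1 KO with RA, 2293 in WT with RA, 179 in untreated Wt1 KO, 197 at 12 h and 588 at 24 h of dox, and 738 in untreated WT. It was called lower in untreated Wt1 KO than in WT, at -2.41 (-2.66 to -2.18), and was not called with RA in both, at 0.11 (-0.38 to 0.56). Next came miR-99b-3p at a distance of 0.46, miR-31-5p at 0.52, the own 3p arm at 0.53 and miR-326-3p at 0.60. The entries most like miR-21a-3p were its own 5p arm at 0.53, miR-28a-5p at 0.63 and miR-31-5p at 0.81, where the median entry lay 1.57 away. The passenger arm was thus not the closest profile to its guide. These distances rest on 6 points that share libraries and scaling, and they were ranked over 350 entries.

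**Figure D5:**
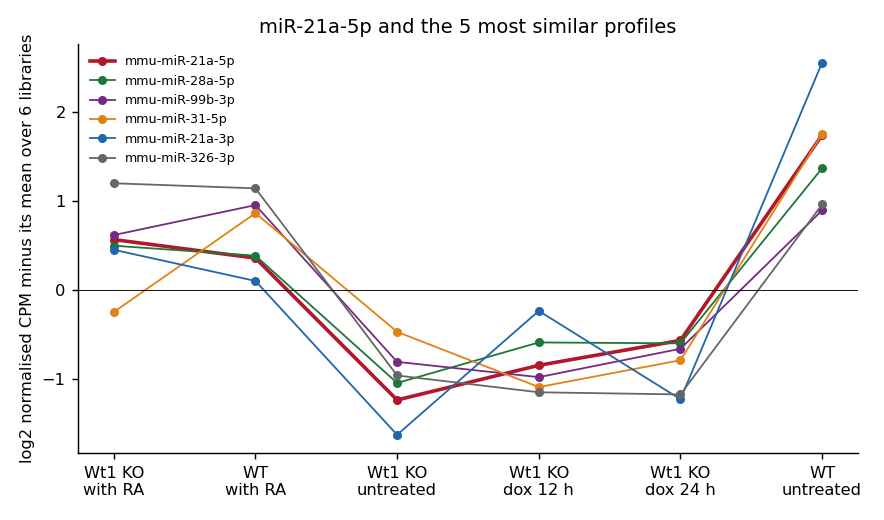
Log2 normalised CPM minus its own mean over the 6 libraries for miR-21a-5p (thick red) and the 5 entries with the smallest root mean square distance to it. miR-28a-5p, at a distance of 0.20, runs closest to miR-21a-5p. miR-21a-3p lies above miR-21a-5p in untreated WT (2.55 against 1.74) and at 12 h of dox (-0.24 against -0.85). At 24 h of dox it lies below (-1.23 against -0.57).

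miR-21a is abundant in fibroblasts, and other miRNAs of fibroblasts and mesenchyme were compared with it. Of the 10 listed entries 6 passed the mean of 50 reads. In untreated Wt1 KO against WT, 3 of these 6 were called lower and 0 higher, where 15.4% of all 351 entries were called lower. Their median log2 ratio was -1.18, against 0.11 over all entries. miR-22-3p, the most abundant, was at -1.92 (-1.94 to -1.90) and miR-31-5p at -2.22 (-2.38 to -2.08). miR-221-3p was at -0.66 (-0.88 to -0.44), uncalled. The joint entry mmu-miR-199b-3p/mmu-miR-199a-3p, of a mesenchymal hairpin family, lay on the other side at 0.69 (0.16 to 1.24), also uncalled, and was called higher with RA in both genotypes, at 3.85 (3.44 to 4.27) in Wt1 KO and 1.56 (1.13 to 2.03) in WT. With RA in Wt1 KO 1 was called higher and 0 lower, where 23.4% of all entries were called higher (median 0.04, against -0.11 over all). With RA in WT 1 was called higher and 2 lower, where 24.2% of all entries were called lower (median -0.90, against 0.14 over all). The response was called higher in Wt1 KO than in WT for 4 of the 6, and for 21.7% of all entries (median 1.41, against -0.01 over all). miR-31-5p, the nearest of them in profile, had a log2 ratio with RA of 0.22 (-0.27 to 0.68) in Wt1 KO and -0.89 (-0.97 to -0.81) in WT, and neither was called. The list summed to 24537 normalised CPM in Wt1 KO with RA, 33688 in WT with RA, 15829 in untreated Wt1 KO, 30768 at 12 h and 27332 at 24 h of dox, and 59145 in untreated WT. These sums are mostly miR-22-3p, which alone held 22640 normalised CPM in Wt1 KO with RA, 32464 in WT with RA, 15083 in untreated Wt1 KO and 57033 in untreated WT. The miR-199 entry was instead at 963 normalised CPM in Wt1 KO with RA, 122 in WT with RA, 66.6 in untreated Wt1 KO and 41.3 in untreated WT. At most 1 of its 10 entries had 0 reads in any library. The part of such cells in the miR-21a levels was not tested.

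Of 10 miRNAs often reported with miR-21 as responsive to stress and cytokines, 6 passed the mean of 50 reads, and 6 of the 10 also stand in the fibroblast, blood or neural lists. In untreated Wt1 KO against WT 3 were called lower and 0 higher, against 15.4% of all entries called lower (median -1.18, against 0.11 over all). With RA in Wt1 KO 1 was called higher and 0 lower, against 23.4% of all entries called higher (median -0.26, against -0.11 over all). With RA in WT 1 was called higher and 1 lower, against 24.2% of all entries called lower (median -0.60, against 0.14 over all). miR-181b-5p, also reported as a STAT3 target in human cells, was lower in untreated Wt1 KO at -4.15 (-4.55 to -3.79) like miR-21a, but higher with RA in both genotypes, at 5.77 (5.38 to 6.20) in Wt1 KO and 2.49 (2.39 to 2.59) in WT. miR-34a-5p, a p53 target, was at 0.08 (-0.09 to 0.24) in untreated Wt1 KO. The list summed to 3397 normalised CPM in Wt1 KO with RA, 6276 in WT with RA, 875 to 1302 in the 3 Wt1 KO libraries without RA and 3348 in untreated WT. Most of the sums with RA is miR-181b-5p, which alone held 2453 in Wt1 KO and 4476 in WT. Without treatment it held 44.6 in Wt1 KO and 797 in WT, so the sums do not show a rise of the list with RA.

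Sums of the markers of other cell types were as follows. The blood and endothelium list summed to 135 to 4307 normalised CPM, with 3052 in untreated Wt1 KO and 915 in untreated WT. Its markers miR-223-3p and miR-451a had 0 reads in all 6 libraries. miR-150-5p held most of it, at 2937 in untreated Wt1 KO and 824 in untreated WT. Unlike miR-21a, it was called higher in untreated Wt1 KO, at 1.83 (1.73 to 1.94). With RA it was called lower in both genotypes, at -3.85 (-4.53 to -3.25) in Wt1 KO and -3.79 (-3.97 to -3.62) in WT. The muscle and mesoderm list summed to 3665 in Wt1 KO with RA, 886 in WT with RA and 329 to 637 elsewhere, with miR-1a-3p and miR-206-3p at 0 reads in all 6 libraries. Its 2 analysed entries went opposite ways in untreated Wt1 KO against WT. miR-143-3p, which makes up most of the sum in the RA and untreated libraries, was called higher at 1.08 (0.86 to 1.31), and miR-133a-3p was called lower at -3.64 (-4.66 to -2.81), on 12 reads in untreated Wt1 KO and 118 in untreated WT. Like miR-21a, miR-133a-3p was called higher with RA in Wt1 KO, at 4.67 (3.65 to 5.84), but it was also called higher with RA in WT, at 1.96 (1.70 to 2.24). The part of muscle or mesoderm cells in the miR-21a levels was not tested. The endoderm list summed to 352 in Wt1 KO with RA, 360 in WT with RA and 178 to 252 elsewhere. The neural list summed to 647 in untreated Wt1 KO, 341 in untreated WT and 432 to 643 elsewhere. Of its 3 analysed entries 2 were called higher in untreated Wt1 KO against WT and 0 lower, where 43 of all 351 entries were called higher. These were miR-124-3p at 2.30 (1.70 to 2.98) and miR-9-5p at 1.08 (0.83 to 1.33), while miR-128-3p was uncalled at 0.29 (-0.02 to 0.60). The entries that overlap ribosomal RNA summed to 2092 in Wt1 KO with RA, against 314 to 787 in the other 5 libraries. In that library both miR-21a arms rest on the fewest reads, and the part of RNA quality in their levels was not tested.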

How the data were processed

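Small RNA was sequenced in 6 libraries, 1 for each group. Total RNA received 3′ and 5′ adapters and was amplified, and a gel band of miRNA inserts and one of longer small RNA were excised together, per the labels' protocols. The authors deposited read counts per mature miRNA entry (1899 in each file), split into unique matches and multi-matches per the file headers. Not given in the sources used here: which aligner, mismatch limit, miRBase release and genome build were used. Unique-match counts were used as deposited.

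Entries with 50 or more reads on average over the libraries, 351 in all, were scaled by TMM in edgeR 4.0.16 (R 4.3.3). Factors ran from 0.798 to 1.29. Log2 ratios had a prior count of 0.5, scaled to library size, and intervals from the exact conditional binomial (Clopper-Pearson) or, for differences of responses and arm balance, the delta method. The ratio calculation was run on simulated Poisson counts with known library totals. That run checks neither the TMM scaling, nor the delta-method intervals, nor any spread beyond counting error. Alternatives were other scalings (among them DESeq2 1.42.0 size factors), minimum counts, prior counts and the addition of multi-matches. Similarity was the root mean square difference of centred log2 profiles. Named entries were both arms, paralogs, seed sharers, the most similar profiles and up to 4 members per list by abundance. The entries with opposite RA calls were named after their values were seen. The members and the 8 lists were chosen with earlier results of these data known. A count of 0 allows up to 3 counts, which equalled 27.8 normalised CPM in Wt1 KO with RA and 0.448 to 2.75 in the other libraries. Sequences came from the deposited files and coordinates from RefSeq (GRCm38.p6) and GENCODE M21.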

Additional observations from a re-analysis of the deposited data

Results flagged for a closer look

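The RA response went in opposite directions in the 2 genotypes for both arms. The log2 response in Wt1 KO minus that in WT was 3.19 for mmu-miR-21a-5p and 4.54 for mmu-miR-21a-3p. With 1 library per group this difference was not tested, and the arms were chosen for it.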

How the results depend on the processing

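Of 180 arm ratios under 9 alternatives (8 planned, and 1 chosen after seeing the data), 159 stayed within the counting interval of the reported value and 21, all of miR-21a-5p, lay outside it. 0 called ratios changed sign, and the only calls to change were the 2 given above for miR-21a-3p at 24 h against 12 h of dox. As CPM of the total, miR-21a-5p was at -3.34 in untreated Wt1 KO over WT, 2.50 for RA in Wt1 KO, -1.29 for RA in WT, 3.78 for the difference of responses, 0.60 and 0.90 for dox at 12 h and 24 h against untreated Wt1 KO, and -2.74 and -2.44 against untreated WT. With the miR-290 and miR-302 families left out it was at -3.33, 2.38, -1.53, 3.90, 0.72 and 0.98 for the first 6 of these, and at 0.58 between the genotypes with RA. RA in WT was at -1.47 by the median of ratios, and at -1.46 and -1.49 with a minimum mean count of 10 and 200. With no minimum, miR-21a-5p was at 1.45 for RA in Wt1 KO, -0.21 between the genotypes with RA and 2.82 for the difference of responses. The median of all entries moved with the scaling too. As CPM of the total it shifted by -0.36 in untreated Wt1 KO over WT, 0.69 for RA in Wt1 KO, 0.24 between the genotypes with RA, 0.60 for the difference of responses, 0.21 and 0.23 for dox against untreated Wt1 KO, and -0.15 and -0.13 for dox against untreated WT. With the families left out the first 4 of these were -0.35, 0.57, 0.37 and 0.71, and the median for RA in WT shifted by -0.14. For dox at 12 h and 24 h against untreated Wt1 KO the median then shifted by 0.33 and 0.31. By the median of ratios, RA in Wt1 KO, the genotypes with RA and the difference of responses shifted by 0.17, 0.20 and 0.25.

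Adding multi-matches could not change the 5p share of the arms, since neither arm had a multi-match read. The number of entries called moved by more than 1.5 times mainly with the number analysed. With a minimum of 200 it was 32 lower in untreated Wt1 KO than in WT (54 reported), 52 lower for RA in WT (85), 7 higher for dox 12 h (15), 18 for dox 24 h (33), 11 for 24 h against 12 h (18), 33 lower for dox 24 h against untreated WT (51) and 50 for the difference of responses (76). With no minimum these were 83, 156, 51, 79, 46 and 85 for the first 6, and with a minimum of 10 they were 37, 64 and 38 for the 3 dox contrasts within Wt1 KO. As CPM of the total 124 entries were higher with RA in Wt1 KO (82), 35 at dox 12 h and 124 for the difference. With the families left out the last 2 were 44 and 131. No paired analysis was possible because each group has 1 library. Depth limits miR-21a-3p most, with 14 reads in Wt1 KO with RA and 43 in untreated Wt1 KO.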
